A study of Mus musculus with 4 samples.

Results

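T cells of brown adipose tissue (BAT) were selected from single-cell RNA sequencing of the stromal vascular fraction, the cells left once floating adipocytes are removed. A barcode was taken as a T cell when it passed the quality limits, held at least 2 unique molecular identifiers (UMIs, counted transcript molecules) over Cd3d, Cd3e, Cd3g, Trac, Trbc1 and Trbc2 with at least 1 from a CD3 gene, and stayed under limits on macrophage, fibroblast and endothelial transcripts. The rule found 196 T cells among 28887 quality-passing barcodes, 27 in WT, 104 in 8-week db/db, 41 in 16-week db/db and 24 in HFD. WT mice were C57BL6/J, labelled 10 weeks old. The db/db mice, which carry a mutated leptin receptor gene (strain B6.BKS(D)-Leprdb/J in the methods, C57BL6/J in the labels), were 8 or 16 weeks old. HFD mice were wild type and fed a high-fat diet; they are labelled 10 weeks old, while the methods start a diet of 10 weeks at that age. Each group was 1 library from the pooled fractions of 3 mice, so no test between groups was possible. Age, diet, genotype and preparation cannot be told apart, nor can the sex-linked transcripts by which 16-week db/db differs, given below. The question was how the immune and stromal cells of BAT change with obesity and type 2 diabetes.

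T cells recognise peptides through the T cell receptor, which signals through the CD3 proteins of the same complex. Naive T cells recirculate between blood and lymph nodes under the transcription factors Lef1 and Tcf7, the lymph node homing receptor Ccr7 and the egress receptor S1pr1. After activation, Cd8 cells in particular switch to an effector programme of granzymes, the granule protein Nkg7, the chemokine Ccl5 and killer lectin receptors. In adipose tissue, regulatory T cells with the IL-33 receptor Il1rl1 and the transcription factor Gata3 are known to restrain inflammation, and Cd8 effector cells are known to accumulate in obesity.

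The promoter windows of 5 T cell genes are shown because the results below turn on the CD3 gene Cd3e, on cytotoxic genes and on the naive gene Lef1. Of the cytotoxic genes, Klrk1 and Cst7 were picked after the matches had been seen, because their windows hold the RUNX core, so the matches among the windows shown say nothing of the list. Each is the RefSeq sequence of the 250 bases before the start on GRCm38.p6, read along the gene's own strand. Lef1 has 4 listed starts, of which the first was taken. Capitals mark matches, on either strand, to the core letters of RUNX factors (TGTGGT or ACCACA), TCF/LEF factors (CTTTGA or TCAAAG) and ETS factors (AGGAAG or CTTCCT). The windows lie at chr9:45009612-45009861 on the minus strand (Cd3e), chr7:43436888-43437137 on the plus strand (Nkg7), chr6:129623865-129624114 on the minus strand (Klrk1), chr2:150570165-150570414 on the plus strand (Cst7) and chr3:131110047-131110296 on the plus strand (Lef1).
Cd3e: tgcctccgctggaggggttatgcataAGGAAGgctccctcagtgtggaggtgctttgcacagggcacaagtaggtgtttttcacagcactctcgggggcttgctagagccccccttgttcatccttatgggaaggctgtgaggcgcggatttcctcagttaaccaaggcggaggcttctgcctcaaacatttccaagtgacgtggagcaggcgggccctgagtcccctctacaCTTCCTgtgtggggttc
Nkg7: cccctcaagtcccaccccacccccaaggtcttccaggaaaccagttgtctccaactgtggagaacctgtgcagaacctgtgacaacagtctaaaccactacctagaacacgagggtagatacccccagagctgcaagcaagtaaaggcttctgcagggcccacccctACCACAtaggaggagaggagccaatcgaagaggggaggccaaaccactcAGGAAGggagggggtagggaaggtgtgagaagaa
Klrk1: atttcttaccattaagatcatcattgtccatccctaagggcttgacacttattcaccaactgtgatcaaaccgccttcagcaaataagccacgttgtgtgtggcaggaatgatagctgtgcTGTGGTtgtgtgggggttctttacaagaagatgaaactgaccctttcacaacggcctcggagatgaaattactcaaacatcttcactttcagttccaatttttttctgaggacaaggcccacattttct
Cst7: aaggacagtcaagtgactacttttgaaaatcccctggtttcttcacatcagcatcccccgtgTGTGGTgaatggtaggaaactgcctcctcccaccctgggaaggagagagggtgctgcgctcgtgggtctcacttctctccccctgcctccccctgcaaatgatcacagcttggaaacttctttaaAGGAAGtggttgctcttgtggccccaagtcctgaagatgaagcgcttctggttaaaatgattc
Lef1: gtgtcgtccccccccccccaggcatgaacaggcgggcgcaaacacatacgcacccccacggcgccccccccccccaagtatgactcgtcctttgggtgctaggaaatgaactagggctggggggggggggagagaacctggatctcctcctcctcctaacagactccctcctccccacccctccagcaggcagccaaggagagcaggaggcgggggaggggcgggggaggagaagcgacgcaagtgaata
RUNX core letters stood in Nkg7, Klrk1 and Cst7, ETS core letters in Cd3e (2 matches), Nkg7 and Cst7, and none of the 3 motifs in Lef1. Among the 11 of 14 cytotoxic effector genes with a window, 6 held the RUNX core (Cst7, Klrk1, Nkg7, Prf1, Gzma, Gzmb), 1 the TCF/LEF core and 5 the ETS core. Among the 5 of 8 naive and recirculating genes with a window, 0 held the RUNX core, 0 the TCF/LEF core and 1 the ETS core. The RUNX core stood in 14%, the TCF/LEF core in 13.8% and the ETS core in 29.5% of all 32851 windows of that length. A match of these letters is a description of the window and was not tested as a binding site.

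The 4 libraries held 6517 to 18306 barcodes, of which 5462 to 11648 passed the quality limits, with median depths of 2733 to 6219 UMIs. The limit of 15% mitochondrial UMIs was met or passed by 28.0% of barcodes in WT, 35.6% in 8-week db/db, 1.04% in 16-week db/db and 68.5% in HFD. Libraries shared 7 to 25 barcode sequences pairwise. The methods state male mice, whereas Xist, the RNA of the inactive X chromosome, had 39 UMIs in 16 of the 41 16-week db/db T cells and 0 UMIs in the T cells of the other libraries. UMIs of Y-linked genes numbered 45 in WT, 97 in 8-week db/db, 5 in 16-week db/db and 30 in HFD T cells. Every comparison of 16-week db/db below also carries this difference in sex-linked transcripts, and its part was not tested.

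The selected cells carried the markers given for T cells. The values of the rule's own genes are a description. Median receptor UMIs per T cell were 13 in WT, 6 in 8-week db/db, 4 in 16-week db/db and 8 in HFD. Just inside the rule, with exactly 2 receptor UMIs, lay 0, 10, 6 and 3 T cells in that order. Just outside it lay 25, 151, 54 and 92 barcodes with 1 receptor UMI, and 19, 48, 35 and 22 with more that lacked a CD3 UMI. The leukocyte gene Ptprc was seen in 26, 98, 23 and 22 of the T cells. A receptor UMI was found in 0.462%, 1.49%, 0.704% and 3.28% of macrophage barcodes, which should lack it. These macrophage barcodes had median depths of 5874, 5156, 5196 and 5691 UMIs. T cell depth differed between libraries, with medians of 5201 UMIs in WT, 3094 in 8-week db/db, 1416 in 16-week db/db and 3267 in HFD. The deepest barcode of 16-week db/db held 22.0% of all its T cell UMIs.

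The T cell share of quality-passing cells was 0.454% in WT (95% exact binomial interval 0.300 to 0.660) and 0.893% in 8-week db/db (0.730 to 1.08). In 16-week db/db it was 0.703% (0.505 to 0.952) and in HFD 0.439% (0.282 to 0.653). Against WT the share was 1.97 times as high in 8-week db/db (1.28 to 3.12), 1.55 times in 16-week db/db (0.929 to 2.62) and 0.967 times in HFD (0.534 to 1.74). Only the interval of 8-week db/db lay above 1. The order turned with the denominator. Of the barcodes with a Ptprc UMI, T cells with one made up 2.39% in WT (1.57 to 3.49), 2.85% in 8-week db/db (2.32 to 3.47), 1.43% in 16-week db/db (0.910 to 2.14) and 0.911% in HFD (0.572 to 1.38), so that 16-week db/db lay below WT in place of above it and the HFD interval lay below that of WT. Ptprc was seen in 26 of 27 WT T cells but 23 of the 41 shallower T cells of 16-week db/db. Without barcodes at or over the endothelial limit the share was 0.456% in WT (0.301 to 0.662) and 0.900% in 8-week db/db (0.736 to 1.09). It was 0.942% in 16-week db/db (0.677 to 1.28) and 0.600% in HFD (0.385 to 0.892). There 16-week db/db was highest, and both db/db intervals lay above that of WT. These intervals, like all others below, cover counting error alone and hold no spread between mice.

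The HFD share depended on the mitochondrial limit. A further 123 HFD barcodes met every other part of the rule but held at least 15% mitochondrial UMIs, against 0 in WT, 6 in 8-week db/db and 1 in 16-week db/db. With the limit at 30% the shares were 0.379% in WT, 0.674% in 8-week db/db, 0.714% in 16-week db/db and 1.06% in HFD (125 cells), which placed HFD highest. With no limit on transcripts of other cell types, 1.12% of HFD barcodes and 0.538% of WT barcodes met the receptor rule.

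**Figure D1:**
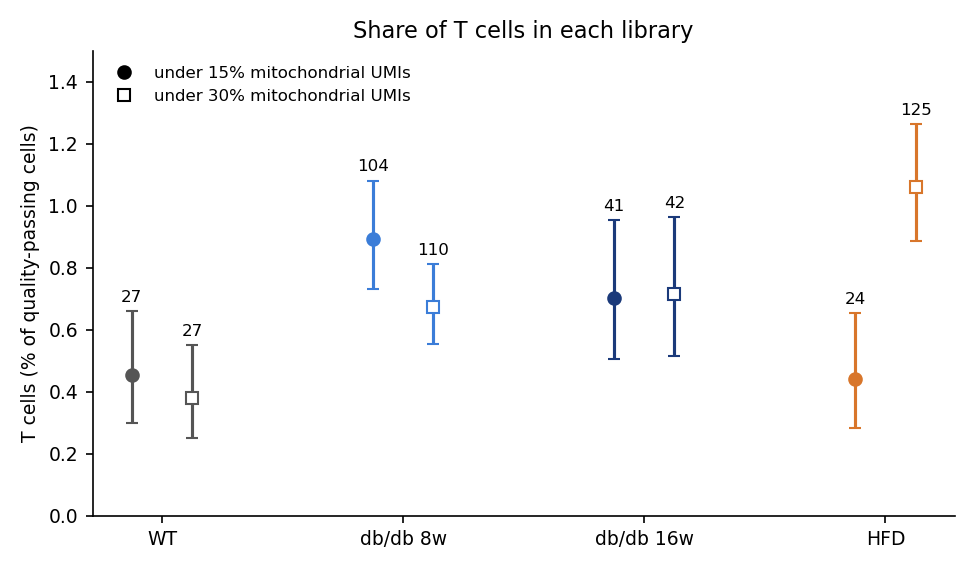
Share of T cells among quality-passing cells (%, vertical axis) in the 4 libraries (horizontal axis; 8w and 16w in the plots are the 8-week and 16-week db/db libraries), with the number of T cells above each point and exact 95% binomial intervals as bars. Filled circles use the limit of 15% mitochondrial UMIs and open squares that of 30%, under which HFD goes from 0.439% to 1.06%.

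The receptor genes themselves stood at similar summed levels, at 2399 CPM (UMIs per 1000000 UMIs of the library's T cells) in WT, 2074 in 8-week db/db, 2289 in 16-week db/db and 2350 in HFD. The rule required these genes, so nothing is read from this. The 12 other receptor complex and signalling genes summed to 2283, 1567, 1248 and 1716 CPM in that order. At least 20 UMIs in the 2 libraries compared were required of a gene, and a gene was called higher or lower at a ratio of 2 or more. Tested means compared in this way, with no p. A gene that is rare in WT reached the minimum only where it was high in the other library, so counts and medians over tested genes are descriptions, while sums cover every gene of a list. In 8-week db/db 0 of 11 tested signalling genes were higher and 3 lower (Cd247, Cd28, Lcp2), where 7.72% of all 3459 genes tested were higher and 7.17% lower. In 16-week db/db 0 of 10 were higher and 3 lower (Cd247 and Skap1 among them), where 15.3% of 1765 genes were higher and 22% lower. In HFD 0 of 11 were higher and 3 lower (Lat and Lcp2 among them), where 10.8% of 1784 genes were higher and 11.9% lower. The median log2 ratio of the tested signalling genes, with 10 CPM added to each value, was -0.46, -0.75 and -0.25, against -0.05, -0.13 and -0.05 over all genes tested. Without barcodes over 15000 UMIs Cd28 in 8-week db/db (log2 -0.91) and Skap1 in 16-week db/db (-0.75) were no longer called, nor was Lcp2 in HFD with the mitochondrial limit at 30% (-0.82) or Lat in HFD as a mean over cells (-0.97). The 3 comparisons share the WT library, so they are not independent of each other. Cd247, which encodes the zeta chain of the receptor complex, stood at 179, 72.5, 43.4 and 104 CPM. Cd5, a receptor that dampens signalling, had 13 UMIs in WT, 33 in 8-week db/db, 0 in 16-week db/db and 13 in HFD.

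Naive and recirculating T cell genes were at WT level in 8-week db/db and far lower in 16-week db/db and HFD. The 8 genes summed to 2251 CPM in WT, 2225 in 8-week db/db, 575 in 16-week db/db and 818 in HFD. Relative to WT these sums gave log2 ratios of -0.02 in 8-week db/db (-0.20 to 0.17), -1.97 in 16-week db/db (-2.41 to -1.55) and -1.46 in HFD (-1.85 to -1.09). In 8-week db/db 0 of 8 tested genes were called in either direction, in 16-week db/db 7 of 7 were lower, and in HFD 5 of 7 were lower (Ccr7, Lef1, Tcf7, Il7r, Satb1). Among all genes tested 7.17%, 22% and 11.9% were lower. The median log2 ratios with 10 CPM added were 0.08, -1.96 and -1.51. With the mitochondrial limit at 30% Tcf7 (log2 -0.95) and Il7r (-0.66) were no longer called in HFD, and as a mean over cells Il7r was not called in 16-week db/db (-0.89).

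Lef1 (chromosome 3, 131110471 to 131224356 on GRCm38), a transcription factor of naive and memory precursor T cells, had 48 UMIs in 12 cells of WT, 83 in 49 cells of 8-week db/db, 2 in 2 cells of 16-week db/db and 2 in 2 cells of HFD. These are levels of 307, 223, 21.7 and 23.0 CPM, a log2 ratio of -3.82 in 16-week db/db (-6.91 to -1.89) and -3.74 in HFD (-6.82 to -1.80). Lef1 UMIs were close to absent outside T cells, with at most 0.259% of macrophage, stromal or endothelial barcodes in any library. Ccr7, the lymph node homing receptor on chromosome 11 (99144196 to 99155077), stood at 185 CPM in WT, 199 in 8-week db/db, 32.5 in 16-week db/db and 23.0 in HFD. All 3 of the Ccr7 UMIs in 16-week db/db came from 1 cell. Lef1 and Ccr7 thus lay at or under 3 UMIs in each of these libraries. The HFD level of Lef1 moved with the mitochondrial limit, and at 30% it was 79.3 CPM, a log2 ratio of -1.95.

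Tcf7, which acts with Lef1, stood at 281, 199, 65.1 and 92.2 CPM. The IL-7 receptor gene Il7r, needed for the survival of naive and memory cells, stood at 486, 507, 195 and 184 CPM, and the chromatin organiser Satb1 at 409, 445, 108 and 115 CPM. S1pr1, the egress receptor, and its activator Klf2 were called in 1 obese library. S1pr1 stood at 160, 148, 32.5 and 115 CPM, and Klf2 at 345, 394, 108 and 242 CPM, so that both passed the 2-fold limit in 16-week db/db (log2 -2.30 and -1.67) and neither in HFD (-0.47 and -0.51). The difference between those libraries was not tested. Endothelial barcodes were rare in WT (7) and frequent in 16-week db/db (1353) and HFD (1166). They also carried S1pr1 (689 to 1411 CPM) and Klf2 (535 to 1091 CPM). Klf2 was lowest in 16-week db/db in 2 other classes too. It stood at 502, 353, 20.2 and 327 CPM in stromal barcodes and 567, 275, 167 and 184 CPM in macrophage barcodes. The part of these other cells in the T cell values was not tested.

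Cytotoxic effector genes showed the opposite order. Their 14 genes summed to 601 CPM in WT, 2337 in 8-week db/db, 5913 in 16-week db/db and 5368 in HFD, log2 ratios of 1.96 (1.65 to 2.28), 3.30 (2.98 to 3.63) and 3.16 (2.84 to 3.49). In 8-week db/db 5 of 6 tested genes were higher and 0 lower (Gzma, Nkg7, Ccl5, Ccl4, Klrd1), in 16-week db/db 3 of 3 higher (Nkg7, Ccl5, Ifng) and in HFD 4 of 4 higher (Nkg7, Ccl5, Ccl4, Ifng). Among all genes tested 7.72%, 15.3% and 10.8% were higher. The median log2 ratios with 10 CPM added were 2.07, 2.87 and 2.89.

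Most of the sum was Ccl5, a chemokine stored by memory and effector Cd8 cells (chromosome 11, 83525778 to 83530518). Ccl5 had 57 UMIs in 1 cell of WT, 593 in 33 cells of 8-week db/db, 440 in 27 cells of 16-week db/db and 332 in 16 cells of HFD. The share of T cells with a Ccl5 UMI was 3.70%, 31.7%, 65.9% and 66.7% in that order, and the level 365, 1591, 4773 and 3824 CPM. Macrophage barcodes held a Ccl5 UMI at 11.3%, 10.8%, 0.353% and 3.94%, above the T cell share in WT and below it in the obese libraries, and stromal barcodes at 1.24%, 1.92%, 1.02% and 3.76%. Since all WT UMIs lay in 1 cell, the WT level of Ccl5 rests on that cell.

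Nkg7, a cytotoxic granule membrane protein (chromosome 7, 43437073 to 43438249), was spread over more cells. It had 7 UMIs in 6 cells of WT, 80 in 33 cells of 8-week db/db, 36 in 15 cells of 16-week db/db and 33 in 9 cells of HFD, or 44.8, 215, 391 and 380 CPM. The log2 ratios were 2.26 (1.15 to 3.62), 3.12 (1.94 to 4.54) and 3.09 (1.88 to 4.51). Nkg7 was at or under 2.88 CPM in the macrophage, stromal and endothelial barcodes of every library. Klrd1, the CD94 chain of killer lectin receptors, had 2, 36, 7 and 15 UMIs, and Klrk1, the NKG2D receptor, had 2, 17, 6 and 9. Cst7, a regulator of cathepsins in cytotoxic granules, had 1, 12, 7 and 5 UMIs. The T cells of the 4 libraries held 156347, 372637, 92177 and 86816 UMIs in all, so that WT had the lowest level of each of these 4 genes at the second highest depth.

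The secreted effectors differed in order. Ifng, the main type 1 cytokine, stood at 64.0 CPM in WT, 59.0 in 8-week db/db, 293 in 16-week db/db and 173 in HFD, so that 8-week db/db did not exceed WT. Gzma had 0 UMIs in WT, 42 in 5 cells of 8-week db/db with 23 of them in 1 cell, 2 in 16-week db/db and 3 in HFD. The chemokine Ccl4 stood at 25.6, 77.8, 75.9 and 265 CPM, with 19 of its 29 UMIs in 8-week db/db in 1 cell. Without barcodes over 15000 UMIs its log2 ratio there was 0.25 against 1.60, so it was no longer called. Gzmb, Gzmk, Prf1, Eomes, Tbx21 and Fasl each had fewer than 20 UMIs over all T cells.

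**Figure D2:**
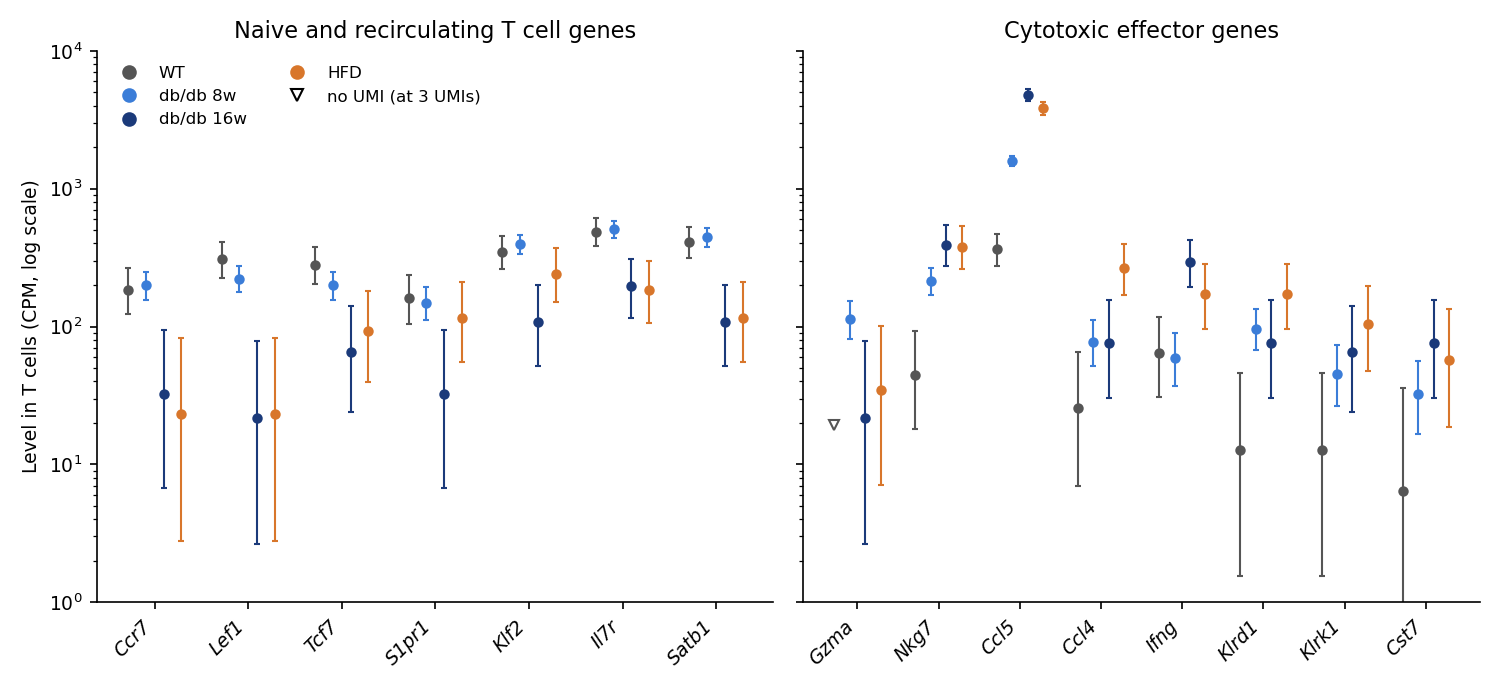
Level in T cells (CPM, log axis) of 7 naive and recirculating genes (left) and of the 8 cytotoxic effector genes with at least 20 UMIs (right) in WT, 8-week db/db, 16-week db/db and HFD, with exact 95% Poisson intervals as bars. An open triangle marks a gene with no UMI, drawn at the level of 3 UMIs. Lef1 lies at 307 and 223 CPM in WT and 8-week db/db and at 21.7 and 23.0 in 16-week db/db and HFD, while Nkg7 goes from 44.8 to 391 and 380.

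Shares of cells were compared at 1000 UMIs per cell, since depth differed, which left out 12 shallower T cells of 16-week db/db and none elsewhere. At least 2 naive and recirculating UMIs were found in 19 of 27 WT cells (70.4%, 49.8 to 86.2), 64 of 104 8-week db/db cells (61.5%, 51.5 to 70.9), 3 of 29 16-week db/db cells (10.3%, 2.19 to 27.4) and 4 of 24 HFD cells (16.7%, 4.74 to 37.4). Averaged over all possible draws of 1000 UMIs the shares were 55.6%, 62.5%, 14.8% and 17.8%, and unthinned 96.3%, 92.3%, 34.1% and 50.0%. At least 2 cytotoxic UMIs were found in 2 of 27 WT cells (7.41%, 0.910 to 24.3), 28 of 104 8-week db/db cells (26.9%, 18.7 to 36.5), 16 of 29 16-week db/db cells (55.2%, 35.7 to 73.6) and 15 of 24 HFD cells (62.5%, 40.6 to 81.2). Unthinned these shares were 29.6%, 46.2%, 63.4% and 79.2%. In this draw the intervals of WT and of 16-week db/db or HFD did not overlap for either list, although the WT naive share of the draw lay above its average over draws. At 2000 UMIs per cell, which left 12 cells of 16-week db/db, the naive share was 70.4% in WT, 50.0% in 16-week db/db and 40.9% in HFD, and these intervals overlapped. Stromal barcodes, thinned alike, reached 0.125%, 1.0%, 0.0962% and 0.411% for the cytotoxic list and 11.5%, 8.45%, 0.481% and 7.26% for the naive list, whose gene Klf2 they express. For the naive list macrophage barcodes reached 15.8%, 9.76%, 4.67% and 13.0% and endothelial barcodes 71.4% (5 of 7), 58.1%, 41.6% and 51.3%. The T cell intervals of 16-week db/db and HFD include the macrophage share and lie below the endothelial one, so those naive shares are not read as expression. The WT and 8-week db/db intervals lie above the stromal and macrophage shares and include the endothelial one. Macrophage barcodes reached 26.4%, 29.7%, 3.56% and 2.52% for the cytotoxic list, with Ccl4 at 2794, 2007, 143 and 67.5 CPM, levels above those in T cells in WT, 8-week db/db and 16-week db/db. The 8-week db/db T cell interval for the cytotoxic list includes the macrophage share, so that share alone is not read as T cell expression. The WT interval lies below the macrophage share, and those of 16-week db/db and HFD lie above it.

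**Figure D3:**
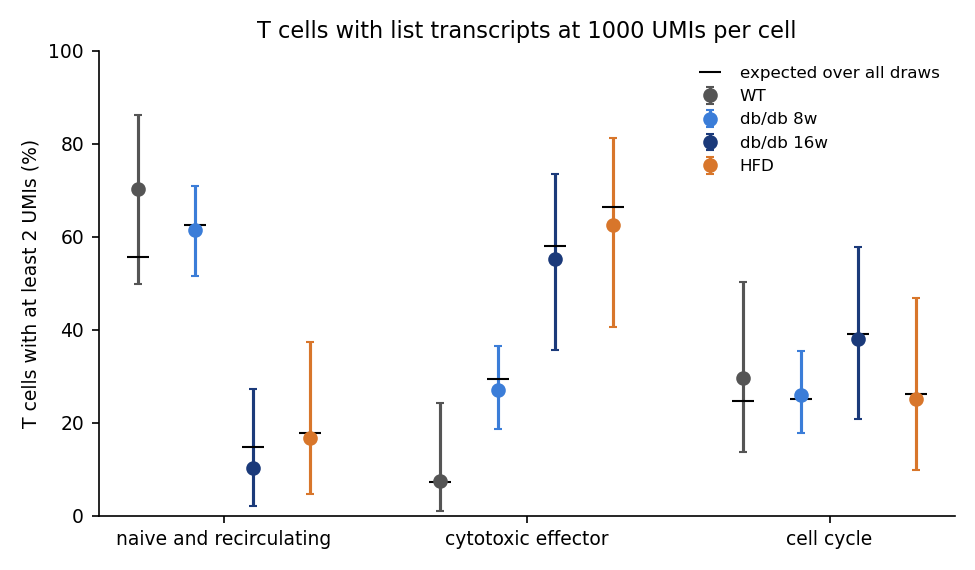
Share of T cells (%, vertical axis) with at least 2 UMIs of the naive and recirculating, cytotoxic effector and cell cycle lists after thinning to 1000 UMIs per cell, by library, in 1 draw, with exact 95% binomial intervals as bars and a dash at the share expected over all draws. The naive share is 70.4% in WT (55.6% over all draws) and 10.3% in 16-week db/db (14.8%), and the cytotoxic share 7.41% and 55.2%.

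Cell by cell, WT held 13 T cells with a UMI of Lef1 or Ccr7 and none of Ccl5, 1 with Ccl5 alone, 0 with both and 13 with neither. In 8-week db/db 49 cells had these naive genes alone, 21 had Ccl5 alone, 12 had both and 22 neither. In 16-week db/db 0 cells had the naive genes alone, 24 had Ccl5 alone, 3 had both and 14 neither. HFD held 2 with the naive genes alone, 14 with Ccl5 alone, 2 with both and 6 neither. The 8-week db/db library thus contained both kinds of cell, and its 12 cells with both included 7 of its 29 Cd8 cells and 0 of its 26 Cd4 cells. The 123 HFD barcodes over the mitochondrial limit, which the rule leaves out, divided into 12 with the naive genes alone, 67 with Ccl5 alone, 14 with both and 30 with neither. Per 1000000 non-mitochondrial UMIs their Ccl5 stood at 5416 CPM against 4337 in the 24 HFD T cells, Nkg7 at 924 against 431 and Lef1 at 120 against 26.1.

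**Figure D4:**
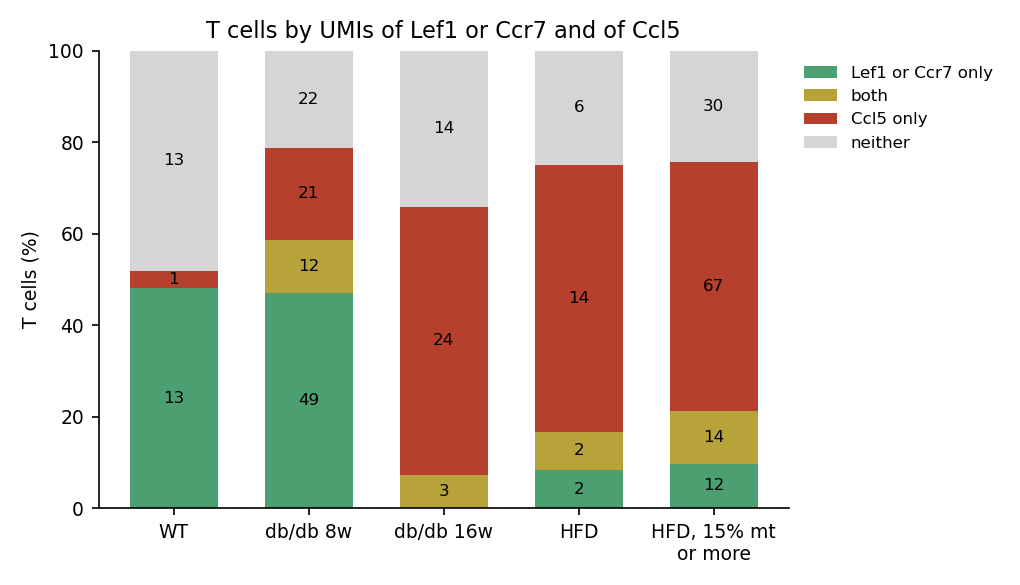
T cells (%, vertical axis) by detection of Lef1 or Ccr7 and of Ccl5 in each library and in the 123 HFD barcodes with 15% mitochondrial (mt) UMIs or more; the numbers in the bars are cells, and depth was not equalised. In WT 13 of 27 cells have only the naive genes and in 16-week db/db 0 of 41.

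Genes of regulatory and type 2 T cells had their highest sum in WT. The 13 regulatory genes summed to 1957 CPM in WT, 1022 in 8-week db/db, 336 in 16-week db/db and 1071 in HFD, log2 ratios of -0.94, -2.54 and -0.87. Of 10 tested genes in 8-week db/db 1 was higher (Ctla4) and 5 lower, of 8 in 16-week db/db 0 were higher and 8 lower, and of 9 in HFD 1 was higher (Ikzf2) and 6 lower, with median log2 ratios of -1.07, -2.43 and -1.20. Among all genes tested 7.72%, 15.3% and 10.8% were higher and 7.17%, 22% and 11.9% lower. Il1rl1, the IL-33 receptor ST2 (chromosome 1, 40429570 to 40465415), had 60 UMIs in 9 cells of WT, 29 in 9 cells of 8-week db/db, 4 in 2 cells of 16-week db/db and 9 in 3 cells of HFD, or 384, 77.8, 43.4 and 104 CPM. Gata3, the type 2 transcription factor, stood at 422, 172, 108 and 104 CPM, and the IL-2 receptor alpha chain Il2ra at 198, 42.9, 10.8 and 80.6 CPM. All 9 of the WT cells with Il1rl1 had a Gata3 UMI, 8 had Il2ra and 5 had Cd4.

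The transcription factor of regulatory T cells, Foxp3, was seen in 0 of the 27 WT cells, 4 cells of 8-week db/db, 1 of 16-week db/db and 2 of HFD. A count of 0 over the 156347 UMIs of WT T cells had an exact 95% Poisson interval up to 23.6 CPM, and 3 UMIs would be 19.2 CPM. Ikzf2, which encodes Helios, stood at 115, 185, 32.5 and 288 CPM. Ctla4 had 5, 28, 4 and 9 UMIs, with 15 of the 28 in 1 cell of 8-week db/db, and was not called there without barcodes over 15000 UMIs (log2 0.31). As a mean over cells Ikzf2 was not called in HFD (0.55). The Il1rl1 cells of WT were therefore not marked by Foxp3 at this depth.

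Several WT values of secreted factors came from few cells. Il10 had 25 UMIs in WT with 24 in 1 cell, and 3, 0 and 0 in 8-week db/db, 16-week db/db and HFD. That cell was a predicted doublet, and without predicted doublets the WT level of Il10 was 6.61 CPM against 159.9. Areg, an epidermal growth factor ligand of tissue repair, had 45 UMIs in WT with 39 in 1 cell, and 56 in 8-week db/db with 29 in 1 cell. The eosinophil cytokine Il5 had 24 UMIs in WT, 23 of them in a cell of 6638 UMIs that also held 13 of Il13, 9 of Il1rl1, 20 of Gata3, 8 of Cd40lg and 3 of Cd4. Such a joint count in 1 barcode describes that cell and gives no level for the group. The costimulatory ligand Cd40lg was spread over 7 WT cells, with 23, 7, 4 and 3 UMIs.

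Over the 14 helper cytokine genes 1 of 5 tested was higher and 3 lower in 8-week db/db, 0 of 4 higher and 2 lower in 16-week db/db, and 1 of 5 higher and 2 lower in HFD, with median log2 ratios of -1.01, -1.22 and -0.92. Among all genes tested 7.72%, 15.3% and 10.8% were higher and 7.17%, 22% and 11.9% lower. Tnf was the gene higher in 8-week db/db, at 51.2, 158, 54.2 and 57.6 CPM, with 28 of its 59 8-week db/db UMIs in 1 cell, and was not called without barcodes over 15000 UMIs (log2 0.88). Xcl1, a chemokine of activated Cd8 cells, was the gene higher in HFD, at 19.2, 32.2, 43.4 and 207 CPM. The lymphotoxin gene Ltb stood at 358, 217, 271 and 184 CPM and passed the limit in no comparison.

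Residency and activation genes were mixed. Of 8 tested genes 0 were higher in any library, while 1 was lower in 8-week db/db (Cxcr6) and 3 in both 16-week db/db and HFD (Cd69, Cxcr6, Icos). Among all genes tested 7.17%, 22% and 11.9% were lower in the 3 comparisons, so little is read from counts out of 8. The median log2 ratios were -0.23, -0.68 and 0.02, and in HFD the sum differed in sign from the median, at 1693 CPM against 2168 in WT. Icos, a costimulatory receptor, was not lower in HFD with the mitochondrial limit at 30% (log2 0.28 against -1.32), nor was Cxcr6 called (-0.26), and the sum turned to 2319 CPM, above WT. Cd69, which retains T cells in tissue and marks recent activation, stood at 736 CPM in WT, 510 in 8-week db/db, 195 in 16-week db/db and 92.1 in HFD. Its log2 ratio was -1.91 in 16-week db/db (-2.72 to -1.19) and -3.00 in HFD (-4.24 to -1.97). The integrin chain Itgb1 stood at 320, 242, 532 and 495 CPM, log2 ratios of 0.73 and 0.63 in 16-week db/db and HFD that did not reach 2-fold. The chemokine receptor Ccr2 was the called gene of its list in each comparison, lower at 537, 99.3, 206 and 196 CPM. Among checkpoint and chronic activation genes Nr4a2 was higher in HFD, at 320, 419, 163 and 783 CPM. Pdcd1, which encodes PD-1, had 4, 15, 2 and 3 UMIs.

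Cell cycle genes had higher sums in the obese libraries, while the shares of cells overlapped at equal depth. The 14 genes summed to 876 CPM in WT, 1497 in 8-week db/db, 2105 in 16-week db/db and 2661 in HFD, log2 ratios of 0.77 (0.50 to 1.05), 1.26 (0.94 to 1.59) and 1.60 (1.29 to 1.92). Of the genes tested 3 of 5 were higher in 8-week db/db (Mki67, Pclaf, Stmn1), 2 of 3 in 16-week db/db (Top2a, Stmn1) and 4 of 5 in HFD (Mki67, Top2a, Pclaf, Stmn1), with 0 lower and median log2 ratios of 1.59, 1.92 and 3.65. Among all genes tested 7.72%, 15.3% and 10.8% were higher. The proliferation antigen Mki67 was found in 1, 7, 5 and 5 cells, with 3, 29, 16 and 31 UMIs, and 21 of the 29 in 8-week db/db lay in 1 cell of 20028 UMIs, and Mki67 was not called there without barcodes over 15000 UMIs (log2 0.34). Stmn1, a microtubule regulator, stood at 12.8, 113, 315 and 461 CPM. At 1000 UMIs per cell at least 2 cell cycle UMIs were found in 29.6% of WT cells (13.8 to 50.2), 26.0% of 8-week db/db (17.9 to 35.5), 37.9% of 16-week db/db (20.7 to 57.7) and 25% of HFD cells (9.77 to 46.7), and unthinned in 88.9%, 68.3%, 48.8% and 41.7%. Stromal barcodes reached 1.64%, 2.24%, 5.38% and 2.81% at 1000 UMIs and macrophage barcodes 5.67%, 10.3%, 29.0% and 9.11%, of which the 16-week db/db value lies inside the T cell interval. The chromatin gene Hmgb2, at 787, 1081, 1128 and 887 CPM, made up most of the WT sum. Without barcodes over 15000 UMIs the log2 ratio of the sum was 0.50 in 8-week db/db and 1.60 in 16-week db/db, and as a mean over cells it was 0.28 in 8-week db/db. In HFD it was 0.83 with the mitochondrial limit at 30%.

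Immediate-early and heat-shock genes, which tissue dissociation is known to induce, were highest in WT T cells. The 12 genes summed to 14372 CPM in WT, 8053 in 8-week db/db, 4578 in 16-week db/db and 6946 in HFD. Of 12 tested 0 were higher and 2 lower in 8-week db/db, 0 higher and 9 lower in 16-week db/db, and 1 higher (Egr1, not called at 3 receptor UMIs, log2 0.99) and 5 lower in HFD, with median log2 ratios of -0.76, -1.58 and -0.89. Among all genes tested 7.72%, 15.3% and 10.8% were higher and 7.17%, 22% and 11.9% lower. The heat-shock chaperone Hspa1b stood at 2654, 918, 857 and 23.0 CPM, with 2 UMIs in HFD, and Jun at 1170, 832, 43.4 and 357 CPM. In the other cell classes the sum was likewise highest in WT. It was 38474, 20263, 5410 and 6876 CPM in macrophage barcodes and 20283, 14788, 6410 and 11233 CPM in stromal barcodes. Endothelial barcodes, only 7 of them in WT, held 27521, 7233, 16648 and 14795 CPM. Cd69 and Nr4a2 are also immediate-early genes. The part of this response in the lower Cd69 and naive gene levels was not tested.

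Outside the lists the named genes were the 5 furthest in each direction among those at least 2 times as high in T cells as in macrophage, stromal and endothelial barcodes. Ly6c2, a surface antigen of memory and effector Cd8 cells, was named in all 3 comparisons, with 38.4 CPM in 3 WT cells, 201 in 25 8-week db/db cells, 228 in 13 16-week db/db cells and 380 in 10 HFD cells. In 8-week db/db the transcription factor Myb had 21 UMIs in 16 cells against 0 in WT, and the giant filament gene Neb 29 in 18 cells against 1. Hba-a2 and Hbb-bt, globin genes, were also named there, with 207 of 213 and 145 of 146 UMIs in 1 barcode. In 16-week db/db the translation inhibitor Pdcd4 stood at 1269 CPM against 352 in WT, Hcst, the adaptor of Klrk1, at 846 against 339, and Cd52 at 1280 against 640. Higd1a, a mitochondrial hypoxia gene, stood at 260 against 76.8. In HFD Serpinb9, an inhibitor of granzyme B, stood at 265 CPM against 32.0, and the chromatin genes Hist1h1b and Ssrp1 at 230 against 19.2 and 219 against 38.4. Gm8251 had 25 UMIs against 0 in WT, 16 of them in 1 cell.

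Among the lower genes, Rnf128, a ubiquitin ligase of T cell anergy, had 23 UMIs in 6 WT cells, 4 in 8-week db/db and 0 in HFD. Nrgn, a calmodulin-binding protein best known from neurons, had 37 UMIs in 4 WT cells, 3 in 8-week db/db and 1 in 16-week db/db. Arg1, the arginase of type 2 immunity, had 22 UMIs in 4 WT cells, 5 in 8-week db/db and 0 in HFD. These low counts rest on 4 to 6 WT cells each. Rln3 had 19 UMIs in WT, 17 of them in 1 cell, and Tnfsf11, which encodes RANKL, 18 in 4 cells. In 16-week db/db Ets1, a transcription factor of lymphocytes, stood at 260 CPM against 1068 in WT and was seen in 25 of 27 WT cells, with Zc3hav1 at 86.8 against 505, Tmem64 at 43.4 against 307 and Ltb4r1, a leukotriene receptor, at 0 against 24 UMIs. In HFD the phosphatase Dusp10 stood at 23.0 CPM against 275, and the ribosomal gene Rps27 at 1739 against 5974.

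Transcripts of other cell types were present in the T cells of all 4 libraries, with stromal ones highest in WT. At 1000 UMIs per cell at least 2 stromal UMIs were found in 14 of 27 WT and 30 of 104 8-week db/db T cells. In 16-week db/db it was 0 of 29 and in HFD 6 of 24. The 12 macrophage and dendritic cell genes summed to 288 CPM in WT, 1632 in 8-week db/db, 2137 in 16-week db/db and 5898 in HFD, although the rule capped C1qa, C1qb and C1qc. Of 4 tested 3 were higher in 8-week db/db, of 5 in 16-week db/db 4 were higher and 1 lower, and of 4 in HFD 3 were higher, with median log2 ratios of 2.99, 4.31 and 4.20. Among all genes tested 7.72%, 15.3% and 10.8% were higher and 7.17%, 22% and 11.9% lower. Cd74, the invariant chain of antigen presentation, stood at 25.6, 657, 933 and 3686 CPM, and in 16-week db/db 83 of its 86 UMIs lay in 1 cell. The lipid chaperone Fabp4 of adipocytes and endothelium stood at 12.8, 330, 1020 and 3294 CPM and was seen in all 24 HFD cells, while endothelial barcodes held 28099 to 73626 CPM. Tyrobp had 0, 95, 41 and 33 UMIs, 71 of the 95 and 33 of the 41 in 1 cell each. Cd36, of endothelium and macrophages, stood at 12.8, 201, 1139 and 968 CPM, with 61 of 75 and 98 of 105 UMIs in 1 cell each of 8-week and 16-week db/db. Endothelial barcodes held Cd36 at 5523 to 6030 CPM and macrophage barcodes at 780 to 3204 CPM. In 8-week db/db 645 of the 646 Hbb-bs UMIs lay in 1 cell. Summed over the 5 genes the granulocyte and red cell list ran from 0 CPM in HFD to 2434 in 8-week db/db. The 6 endothelial genes summed to 64.0, 263, 1193 and 1256 CPM, the 9 adipocyte genes to 32.0, 343, 1031 and 3410, the 8 stromal genes to 1094, 878, 152 and 783, and the 7 B cell genes to 141, 88.6, 21.7 and 115. Without barcodes over 15000 UMIs, 2 in 8-week and 1 in 16-week db/db, the endothelial sum, which includes Cd36, was 109 and 167 CPM. The 8-week barcode of 23587 UMIs among them held 71 UMIs of Tyrobp, 9 of Cd68 and 83 of Lyz2. The 16-week barcode held 33, 22 and 8 of these genes. As a mean over cells the log2 ratio of the macrophage sum in 16-week db/db was 0.93 against 2.89. The 8 natural killer and NKT cell genes summed to 19.2, 419, 814 and 979 CPM, of which only Tyrobp and Fcer1g reached 20 UMIs. A UMI of a defining natural killer marker (Ncr1, Klrb1c, Klre1 or Klra8) was found in 0, 4, 1 and 3 T cells. Lef1 and Nkg7 were at most 0.508 and 2.88 CPM in the other cell classes, while the part of their other transcripts in the remaining results was not tested.

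The coreceptors divide conventional T cells into helper (Cd4) and killer (Cd8a, Cd8b1) lineages. By any UMI, 12 of 27 WT cells (44.4%, 25.5 to 64.7), 26 of 104 8-week db/db cells (25%, 17.0 to 34.4), 6 of 41 16-week db/db cells (14.6%, 5.57 to 29.2) and 4 of 24 HFD cells (16.7%, 4.74 to 37.4) were in the Cd4 class. The Cd8 class held 5 (18.5%, 6.30 to 38.1), 29 (27.9%, 19.5 to 37.5), 12 (29.3%, 16.1 to 45.5) and 8 (33.3%, 15.6 to 55.3). In macrophage, stromal and endothelial barcodes Cd4 stood at no more than 7.62 CPM and Cd8a and Cd8b1 at no more than 0.585 CPM. At 1000 UMIs per cell the Cd4 class held 3 of 27, 13 of 104, 5 of 29 and 1 of 24 cells, and the Cd8 class 2 of 27, 18 of 104, 6 of 29 and 6 of 24. At equal depth the intervals of each class overlapped between all 4 libraries. Trdc, the constant gene of the delta chain, was seen in 1, 6, 1 and 0 cells. The WT cell also held 4 UMIs of Tcrg-C1 and 8 of Cd163l1, a marker of interleukin-17 producing gamma-delta cells, and the 16-week db/db cell held 3 UMIs of Il17a. Some of the 8-week db/db cells held Cd163l1 too, at 6, 5 and 3 UMIs, the first of them with 2 of Tcrg-C1. All db/db cells with Trdc also held Trbc1 or Trbc2 UMIs, from 1 to 14, while the WT cell held none. UMIs of the 176 listed receptor variable segments numbered 6, 19, 16 and 6, too few to follow clones.

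Within libraries, Cd8 and Cd4 cells could be tested against each other, since each library supplies a pair. By edgeR's quasi-likelihood test with Benjamini-Hochberg adjustment over 473 genes, with the library as a block, 1 gene was higher in Cd8 cells (0.211% of genes tested) and 1 in Cd4 cells (0.211%), with 37 genes at an unadjusted p under 0.05. Ccl5 was higher in Cd8 cells, at 1606 against 0 CPM in WT, 3255 against 99.8 in 8-week db/db, 4956 against 1151 in 16-week db/db and 9222 against 1414 in HFD. The log2 difference was 3.82 (SE 0.63), with an adjusted p of 0.0315 by edgeR and the same direction in 4 of 4 libraries. The WT direction of Ccl5 rests on 1 cell, the only WT T cell with a Ccl5 UMI. Hspa1b (chromosome 17, 34956436 to 34959238) was higher in Cd4 cells, at 2749 against 620, 1198 against 197, 1267 against 248 and 61.5 against 0 CPM, a log2 difference of -2.26 (SE 0.37) with an adjusted p of 0.0315 by edgeR. The HFD direction of Hspa1b rests on 1 UMI. Without predicted doublets its log2 difference was -1.68 with an adjusted p of 0.299 by edgeR, so the call ended, and over the alternatives in which it was tested the adjusted p ran from 8.99e-05 by DESeq2 to 0.993 by edgeR without the block.

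Nkg7 was higher in Cd8 cells in 4 of 4 libraries without passing the threshold (log2 2.89, adjusted p 0.0720 by edgeR), at 141 against 15.6, 493 against 45.4, 434 against 0 and 645 against 246 CPM. Rgs1, a brake on chemokine signalling, was higher in Cd4 cells in 4 of 4 libraries, also without passing (log2 -1.93, adjusted p 0.0789 by edgeR). Of the lists, 2 cytotoxic genes were tested with 1 higher in Cd8, 3 naive genes with 0 called and 9 immediate-early and heat-shock genes with 1 higher in Cd4. Classes held as few as 4 cells in a library. The 12 Cd8 cells of 16-week db/db held 48428 UMIs and included the barcode of 20260 UMIs. That barcode also held 33 UMIs of Tyrobp, 22 of Cd68 and 26 of Pf4. Its part in the calls was not tested, since no alternative of this test left out barcodes by depth. Without WT or without 8-week db/db 0 genes were called in either direction, with Ccl5 at an adjusted p of 0.691 and 0.231 by edgeR, and without 16-week db/db 3 were called higher in Cd8 and 17 in Cd4.

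**Figure D5:**
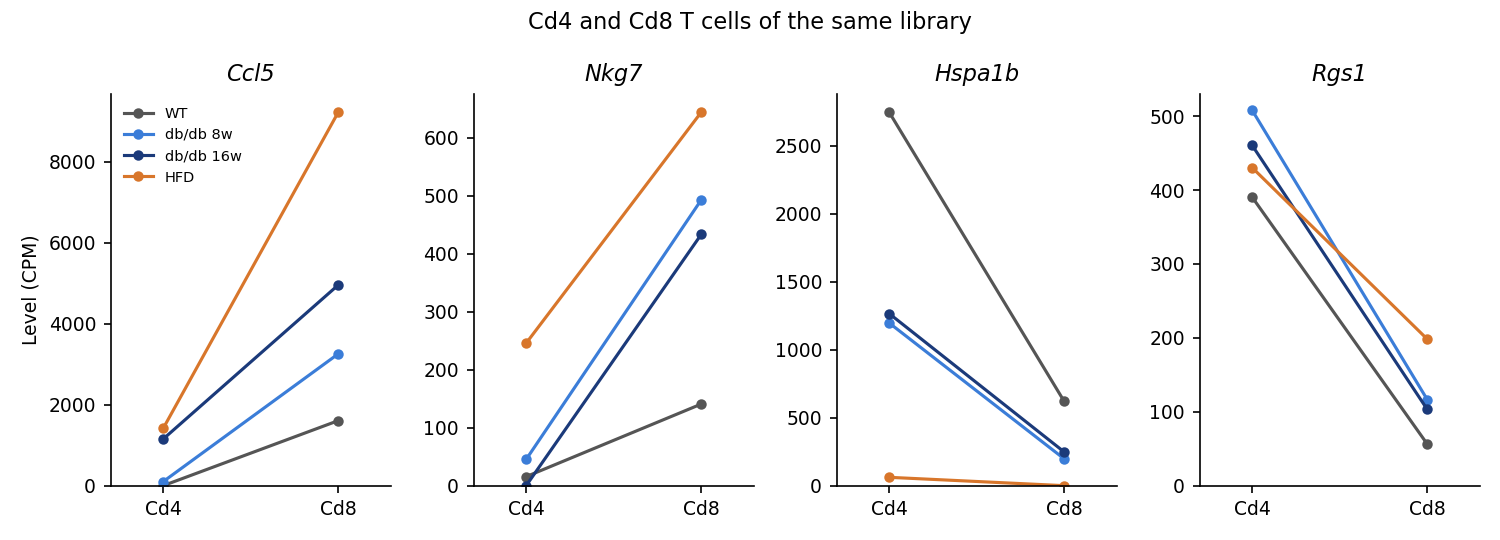
Level (CPM, vertical axes with separate ranges) of Ccl5, Nkg7, Hspa1b and Rgs1 in the summed Cd4 and Cd8 T cells of each library; lines join the same library. Ccl5 and Nkg7 are higher in Cd8 cells and Hspa1b and Rgs1 in Cd4 cells in 4 of 4 libraries. Hspa1b in HFD is 1 UMI against 0, and Ccl5 in WT comes from 1 cell.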

How the data were processed

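Single-cell RNA sequencing of the BAT stromal vascular fraction gave 1 library per group (WT, 8-week db/db, 16-week db/db, HFD). The deposited values were raw UMI counts per gene and barcode, made by the authors from 10x Genomics 3′ libraries with Cell Ranger on mm10. The submitters' processing notes name version 7.1.0 and the file header 6.0.0. The files hold called barcodes before any filter, so the authors' subsampling, integration and clustering do not affect them, and ambient RNA was not removed. The methods mention cell sorting before capture without naming a gate for these libraries.

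Quality limits were those of the study: more than 250 but fewer than 6000 genes, more than 500 but fewer than 30000 UMIs, and a mitochondrial share under 15%. T cells needed at least 2 receptor UMIs with at least 1 of Cd3d, Cd3e or Cd3g, and under 5 C1qa, C1qb and C1qc UMIs, under 30 Col1a1, Col1a2, Col3a1, Dcn and Gsn UMIs and under 20 Cdh5, Cldn5 and Gpihbp1 UMIs per 10000. Barcodes at or over 1 of these limits and under the others served as macrophage, stromal and endothelial barcodes. The members and the 20 gene lists (191 genes, of which 190 were in the files) were chosen with earlier results of these data known. Raw UMIs were summed over the T cells of a library. Shares had exact (Clopper-Pearson) binomial 95% intervals, CPM exact Poisson intervals and ratios exact conditional binomial intervals. A gene was called at a ratio of 2 or more with at least 20 UMIs in both libraries together. A count of 0 was given a floor of 3 UMIs. Members of the lists with at least 20 UMIs over all T cells were named with values. Outside the lists, the 5 higher and 5 lower genes whose interval lay farthest from no change were named, among those at least 2 times as high in T cells as in each other class. Values of some genes that fall under these rules are not reported here, though sums and counts over a list include them.

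Cd8 cells (a UMI of Cd8a or Cd8b1, none of Cd4) were compared with Cd4 cells (the reverse) on summed counts with edgeR 4.0.16 (TMM, filterByExpr, quasi-likelihood test) in R 4.3.3, and DESeq2 1.42.0 as an alternative. Cd4, Cd8a and Cd8b1 were left out. The planned minimum of 10 cells per class was met in 1 library, so 4 cells were required, a choice made after the data were seen. Both classes come from the same mice, which pairs them. Their deviations correlated at 0.493 in WT, 0.069 in 8-week db/db, 0.364 in 16-week db/db and 0.574 in HFD. The test left 3 residual degrees of freedom. Tested on simulated data for this comparison (417 genes), it recovered 29 of 67 genes changed 2-fold, 58 of 67 changed 4-fold and 61 of 66 changed 8-fold, and called 6 of 273 unchanged genes. The simulated libraries shared the same pooled profile and a common dispersion. They held no differences between libraries, so these rates do not carry over to the real ones.

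Doublets were ranked by Scrublet score in scanpy 1.11.5 up to 0.8% per 1000 barcodes. They made up 1, 2, 1 and 0 of the T cells, were kept, and were removed in an alternative. Gene positions are those of GENCODE vM21 on GRCm38, where 99.6% of the 32285 gene IDs were found. Promoter windows from RefSeq were found for 125 list genes. Other alternatives were the minimum of UMIs, the mitochondrial limit, the thinning depth, the mean over cells in place of the sum, and leaving out each library.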

Additional observations from a re-analysis of the deposited data

Results flagged for a closer look

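The limit of 15% mitochondrial UMIs removed 123 HFD barcodes that met the rest of the T cell rule, which stood out as a signal outside the cells compared: WT lost 0 such barcodes, 8-week db/db 6 and 16-week db/db 1. They had a median of 2175 UMIs, and 101 of them held under 30% mitochondrial UMIs. Per 1000000 non-mitochondrial UMIs they carried Cd3d at 587 CPM against 483 in the HFD T cells kept, Ccl5 at 5416 against 4337, Il7r at 452 against 209 and Cd74 at 717 against 4180. Fabp4 was in 121 of them. The part of the mitochondrial share in these levels was not tested.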

How the results depend on the processing

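Values over the 4 libraries are given in the order WT, 8-week db/db, 16-week db/db, HFD. The T cell share was 0.210%, 0.528%, 0.424% and 0.183% at 1000 UMIs per cell and 2.39%, 2.85%, 1.43% and 0.911% of barcodes with a Ptprc UMI. It was 1.19% in 8-week db/db and 1.12% in HFD with no limit on other cell types, and 0.674% and 1.06% with the mitochondrial limit at 30%. Genes called higher and lower numbered 66 and 53 (8-week db/db), 95 and 126 (16-week db/db) and 49 and 67 (HFD) at a minimum of 50 UMIs, in part because fewer genes were tested. Without barcodes over 15000 UMIs 173 genes were higher in 8-week db/db and 176 in 16-week db/db, against 267 and 270. Without mitochondrial and ribosomal protein genes 8-week db/db had 327 higher and 158 lower, against 267 and 248. With the 30% limit HFD had 423 and 345, against 192 and 213, and Icos reversed, from -1.32 to 0.28 on the log2 scale. As a mean over cells the cytotoxic sum was 3.88 in 16-week db/db, and the cell cycle sum 0.28 in 8-week db/db and 1.24 in HFD. The cell cycle sum was 0.50 and 1.60 in 8-week db/db and 16-week db/db without the deepest barcodes and 0.83 in HFD at the 30% limit. For these values the cause was not tested. The naive sum in 16-week db/db and HFD and the cytotoxic sum in all 3 comparisons kept their direction under every alternative run.

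Cell cycle shares were 88.9% and 68.3% unthinned (WT, 8-week db/db), 45.6% and 58.3% at 2000 UMIs (8-week db/db, 16-week db/db), 55.6%, 67.3%, 69.0% and 50.0% at 1 UMI, and 8.65% at 3 UMIs (8-week db/db). Naive shares were 96.3%, 92.3%, 34.1% and 50.0% unthinned, 85.6%, 50.0% and 40.9% at 2000 UMIs in the obese libraries, and 37.0%, 49.0%, 7.32% and 0% at 700 UMIs, which kept every T cell. At 700 UMIs the naive interval of WT (19.4 to 57.6) overlapped that of 16-week db/db (1.54 to 19.9) but not that of HFD (0 to 14.2). Cytotoxic shares were 29.6% and 46.2% unthinned (WT, 8-week db/db) and 75.0% at 2000 UMIs (16-week db/db). The Cd4 class was 44.4% and 25% unthinned (WT, 8-week db/db), 21.1% and 0% at 2000 UMIs (8-week db/db, 16-week db/db), and the Cd8 class 27.9% unthinned (8-week db/db) and 50.0% at 2000 UMIs (16-week db/db), where the Trdc class was 0%. Depth limits all of these.

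For Cd8 against Cd4 (1 and 1 genes called by edgeR), no filter on low counts gave 18 and 6, no replicate block 0 and 0 (15 genes at an unadjusted p under 0.05), removed doublets 1 and 0 (Hspa1b lost), and DESeq2 1 and 1. Leaving out 1 library gave 0 to 3 higher in Cd8 and 0 to 17 higher in Cd4, with 1 and 2 without HFD. Blocking by library, which pairs the classes, thus carried both calls. The Trdc test was not run, since libraries held 1, 4, 1 and 0 such cells. Over single genes 1775 of 1810 values moved by less than their interval. Leaving out barcodes over 15000 UMIs, the 30% limit for gene levels, the 4-cell minimum, and the naive and cytotoxic shares were chosen after seeing the data.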
